A study of Mus musculus with 7 samples.

Results

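The enzymes that build and break down glycogen exist as tissue isoforms encoded by separate genes. The 10 genes described here are Gyg (glycogenin), Gys1 and Gys2 (glycogen synthase), Pygl, Pygm and Pygb (glycogen phosphorylase), Phka1 and Phka2 (the alpha subunit of phosphorylase kinase) and Phkg1 and Phkg2 (its gamma subunit). They were chosen by name from 21341 protein-coding genes with a name in the table, and a locus was found for 10 of 10. The RNA-Seq libraries came from wild-type C57BL/6 mice (C57BL/6N in the study's methods) and cover skeletal muscle, cortex, kidney and liver, and the fat depots BAT (brown adipose tissue), VAT (visceral) and SCAT (subcutaneous). All animals were 36 weeks old, were kept on NCD, the control diet, and carried no labelled transgene or treatment. How many animals gave RNA to a library is not given in the sources used here. Each tissue is represented by 1 library of rRNA-depleted total RNA, sequenced in pairs of 101 bases. Values are FPKM, fragments scaled for transcript length and library size, so levels of different genes are compared per length. With 1 library per tissue there was no test and no error, the spread between mice is unknown, and no pair of neighbours in an order of tissues can be said to differ beyond it. Depth is unknown too, as fragment counts are not part of the table.

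Glycogen is a branched store of glucose. Glycogenin primes a new particle, glycogen synthase lengthens its chains, and glycogen phosphorylase releases glucose 1-phosphate from them. Phosphorylase kinase is a complex of alpha, beta, gamma and calmodulin subunits, in which gamma holds the catalytic site and alpha and beta restrain it, and it switches phosphorylase on by phosphorylating a serine near the amino terminus. The liver isoforms serve a store that keeps blood glucose up between meals, the muscle isoforms feed contraction, and the brain holds a small store, mostly in astrocytes.

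The serine that phosphorylase kinase acts on is encoded by all 3 phosphorylase genes, and it links both enzymes described here. The 30 coding bases around it are shown from the reference transcripts (GENCODE M21, GRCm38), 5′ to 3′, from base 31 to base 60 of the coding sequence, with the serine codon, codon 15 counted from the start codon, in capitals.
Pygl: cgacggcagatcAGCatccgaggcatcgtg
Pygm: agaaagcaaatcAGCgttcgtggcttagcc
Pygb: cagaagcagatcAGCgtgcgtggcatcgcg
The codon AGC is the same in the 3 genes. Within the window, Pygl matched Pygm at 19 of 30 bases, and Pygb matched either of them at 22 of 30. Over the whole coding sequences, identity was 76.1% between Pygl and Pygm, 75.9% between Pygl and Pygb and 78.2% between Pygm and Pygb. It was 70.3% between Gys1 and Gys2, 71.2% between Phka1 and Phka2 and 70.0% between Phkg1 and Phkg2. The longest run of identical bases within an enzyme was 62 bases, between Pygm and Pygb, and at most 29 bases in the other pairs, which is shorter than a read of 101 bases.

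The promoters of the 3 members with a call for muscle below, Pygm, Phka1 and Phkg1, are shown as the 250 bases before the RefSeq start (GRCm38.p6), 5′ to 3′ on the strand of the gene, with motif matches in capitals. The Pygm window is chr19:6384158-6384407 on the plus strand, the Phka1 window is chrX:102644247-102644496 on the minus strand, and the Phkg1 window is chr5:129879089-129879338 on the minus strand.
Pygm: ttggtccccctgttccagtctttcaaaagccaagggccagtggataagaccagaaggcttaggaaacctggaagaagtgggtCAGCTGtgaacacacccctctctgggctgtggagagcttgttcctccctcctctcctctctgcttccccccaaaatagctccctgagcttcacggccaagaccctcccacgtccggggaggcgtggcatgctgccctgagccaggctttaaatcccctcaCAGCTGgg
Phka1: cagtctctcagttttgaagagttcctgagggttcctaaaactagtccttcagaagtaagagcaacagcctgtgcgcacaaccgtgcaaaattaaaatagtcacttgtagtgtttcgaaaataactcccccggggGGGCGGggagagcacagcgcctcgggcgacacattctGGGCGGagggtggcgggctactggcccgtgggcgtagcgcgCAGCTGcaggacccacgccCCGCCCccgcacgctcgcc
Phkg1: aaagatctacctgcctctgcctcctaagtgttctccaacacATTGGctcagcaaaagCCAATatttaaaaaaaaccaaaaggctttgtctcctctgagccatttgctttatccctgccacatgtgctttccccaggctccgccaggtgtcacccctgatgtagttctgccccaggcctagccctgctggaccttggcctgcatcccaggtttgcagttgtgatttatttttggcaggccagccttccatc
Several short motifs were searched on both strands, and capitals mark their matches. The E-box that myogenic factors bind, spelled CAGCTG, was in 13.0% of all 32851 promoters of the same length and in 3 of the 9 members with an entry (Gys1, Phka1 and Pygm). In Pygm its first base lies at position -168 and again at position -8 from the start, and in Phka1 it lies at -38. The GC box, spelled GGGCGG, was in 32.7% of all promoters and in 6 of the 9 members, and Phka1 holds it at -116, -79 and -19. The motif named after its letters CCAAT was in 33.8% of all promoters and in 3 of the 9 members (Gys1, Phkg1 and Phkg2), and Phkg1 holds it at -209 and -193. A TATA box spelled TATAAA (12.4% of all promoters), and a second kind of E-box spelled CACGTG (6.02%) were in none of the 9. Nor were the site of MEF2 factors, spelled CTAAAAATA (0.469%), and the element of the cAMP response, spelled TGACGTCA (1.55%). None of these motifs contains another. The Pygm window has 4 CpG dinucleotides and the Phkg1 window 1, while Phka1 has 19 and Pygl 20, against a median of 6 over all promoters.

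Labelled tissues were checked against marker genes. At least 4-fold above every other tissue were 4 of 5 hepatocyte markers in liver (Alb is listed without a liver value), 5 of 5 tubule markers in kidney, 5 of 5 neuron and 1 of 5 astrocyte markers in cortex, 5 of 7 fibre markers in muscle (Ckm over the other 5 tissues with a value, as it has none in liver) and 2 of 5 brown adipocyte markers in BAT. Dio2 was at 0.387 FPKM in BAT. None of the 5 adipocyte markers (0 of 5) was 4-fold higher in VAT than in every other tissue, and they summed to 6214 FPKM in VAT, 3245 in SCAT and 10787 in BAT. Outside fat they summed to 438 FPKM in muscle, 71.4 in kidney, 24.5 in liver and 7.50 in cortex. Their part in the muscle value of Pygl was not tested. Markers of other cell types were found in the fat libraries. There, 5 of 5 lymphocyte and 4 of 5 pancreatic acinar markers were 4-fold higher in SCAT than elsewhere, and 3 of 5 epididymal markers in VAT. Muscle markers in BAT and hepatocyte markers in VAT are given with the genes they touch.

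Members of the muscle isoforms of phosphorylase and phosphorylase kinase were far higher in muscle than in any other tissue. The rule for a gene enriched in a tissue asked for 1 FPKM or more there and for a gap of 2 or more in log2(FPKM + 0.1), or 4-fold, to each of the other 6 tissues. This scale understates differences of low values. By this rule, 3 of 10 members were enriched, against 21.3% of 14898 protein-coding genes that reached 1 FPKM in any tissue and had a value in all 7. All 3 (Pygm, Phka1 and Phkg1) were called in muscle, where 3.38% of all genes were called. No member was called in liver (3.38% of genes) or BAT (0.738%). Without the BAT library 5 members were called, against 22.2% of genes, with Gys2 the 1 called in liver (3.69%) and Gyg joining the 3 in muscle (4.16%). Gys2 and Pygl, the liver isoforms of synthase and phosphorylase, were highest in liver and in BAT, respectively. The median log2 ratio of the highest over the next tissue was 1.19 over the members and 0.68 over all genes. The member median lies between Gys2 (1.34) and Gys1 (1.04), and the Gys1 values carry a limit given below. The plot of FPKM by tissue shows the 10 genes on a shared scale.

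**Figure D1:**
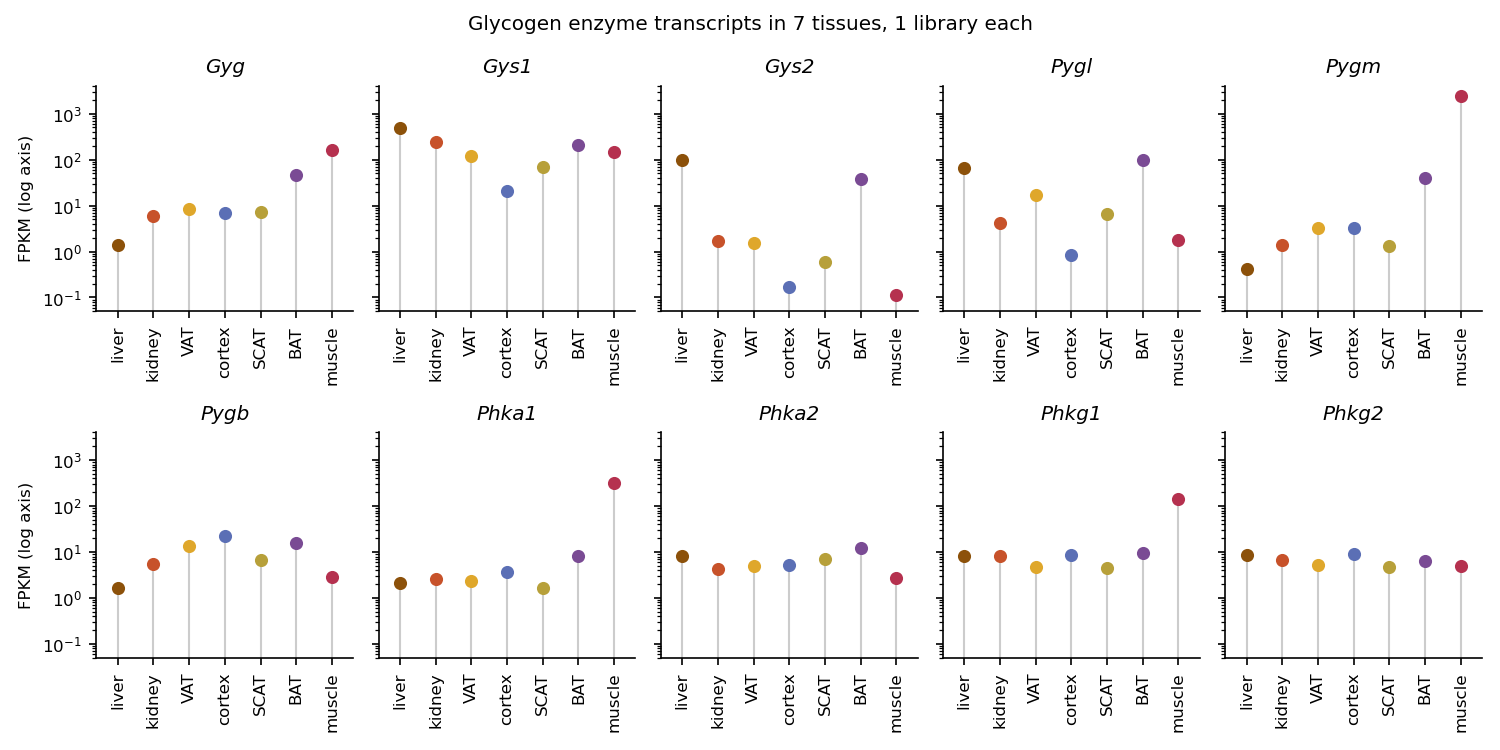
FPKM (log axis) of the 10 members in each of 7 tissues, 1 point per library with a grey line down to the axis. Pygm, Phka1 and Phkg1 stand highest in muscle at 2387, 326 and 141 FPKM, Gys2 and Pygl stand high in liver and BAT, and Phkg2 lies between 4.69 and 9.11 FPKM in all tissues.

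Gyg (chr3:20122084-20155317, minus strand, with this and the following gene positions on GRCm38 from GENCODE M21) encodes glycogenin, the protein primer on which a glycogen particle starts. Its level was 164 FPKM in muscle, 45.2 in BAT, 8.26 in VAT, 7.31 in SCAT, 6.82 in cortex, 6.01 in kidney and 1.40 in liver. Muscle was 3.64-fold above BAT, just short of the 4-fold rule, and 118-fold above liver, the lowest tissue. The 4 values from kidney, VAT, cortex and SCAT lay between 6.01 and 8.26 FPKM.

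Gys2 (chr6:142422613-142473109, minus strand) encodes the liver isoform of glycogen synthase. It reached 95.9 FPKM in liver and 37.9 in BAT, and was 1.72 in kidney, 1.5 in VAT, 0.596 in SCAT, 0.173 in cortex and 0.115 in muscle. Liver was 2.53-fold above BAT and 55.8-fold above kidney, the next tissue. VAT held 1.56% of the liver level of Gys2, while the hepatocyte markers Apoa1, Ttr, Cps1 and Tat in VAT were at 0.701% to 2.29% (median 0.862%) of liver. Alb, at 253 FPKM in VAT, has no liver value to compare. In BAT the same 4 markers summed to 0.301 FPKM, against 6876 in liver, while Gys2 in BAT was 39.5% of its liver level.

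Gys1 (chr7:45434844-45456619, plus strand) encodes the synthase isoform of muscle and most other tissues. Its listed level was 497 FPKM in liver, 242 in kidney, 207 in BAT, 146 in muscle, 119 in VAT, 70.1 in SCAT and 20.2 in cortex. Liver stood 2.05-fold above kidney, and cortex was the lowest, 24.5-fold below liver. These values cannot be read as Gys1 alone. The gene ends 1324 bp from Ftl1, the ferritin light chain gene on the minus strand, and the table gives both the same locus bounds. Listed Gys1 was 46.0% of Ftl1 in VAT, 47.0% in kidney, 47.9% in liver, 50.0% in cortex, 50.9% in BAT and 54.9% in SCAT. In muscle, where Ftl1 was at 99.8 FPKM, it was 146%. Ruvbl2, also on the minus strand, overlaps Gys1 over 3253 bp and was between 4.69 and 22.6 FPKM. The libraries were prepared with a directional kit, but the strand setting of the counting is not given in the sources used here, and reads of Gys1 and Ftl1 cannot be told apart.

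Among the members, 3 more have a gene on the other strand within the same locus bounds. Pygb ends 734 bp from Abhd12, a lipase gene, and was 42.8% to 56.7% of it in kidney, VAT, cortex, SCAT and BAT, 24.5% in muscle and 14.8% in liver. Phkg1 overlaps Sumf2 over 630 bp, and Sumf2 was 144 FPKM in muscle against 1.96 to 5.33 in the other 6 tissues. The GENCODE bounds of Phkg1 also overlap Zbed5 on the plus strand over 2827 bp and contain all 6315 bp of Chchd2 on its own strand, a gene of mitochondrial function. Zbed5 was at 7.31 to 58.6 FPKM, above Phkg1 in every tissue but muscle, and Chchd2 was at 41.0 to 442. The annotations disagree here, since the RefSeq start used for the promoter lies inside these bounds, and from that start Phkg1 reaches neither Chchd2 nor Zbed5. Phkg2 overlaps Ccdc189 over 925 bp, and Ccdc189 was 37.8% to 54.4% of Phkg2. How far such reads enter the 4 members was not tested, and results that rest on Gys1, Pygb, Phkg1 or Phkg2 carry this limit. Without them, 2 of 6 members were enriched, against 21.3% of all genes, and both were called in muscle, against 3.38%. The other 6 members have no protein-coding gene on the other strand within their bounds, though 5 of them have a locus of their own name on the other strand. In the leading tissue that locus was 7.21% of the annotated strand for Pygl, 9.01% for Gys2, 24.4% for Gyg, 26.2% for Pygm and 32.5% for Phka1. Among 1254 protein-coding genes reaching 100 FPKM, 560 had such a locus, with a median of 12.4% (interquartile range 5.40% to 28.8%) of the highest FPKM.

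**Figure D2:**
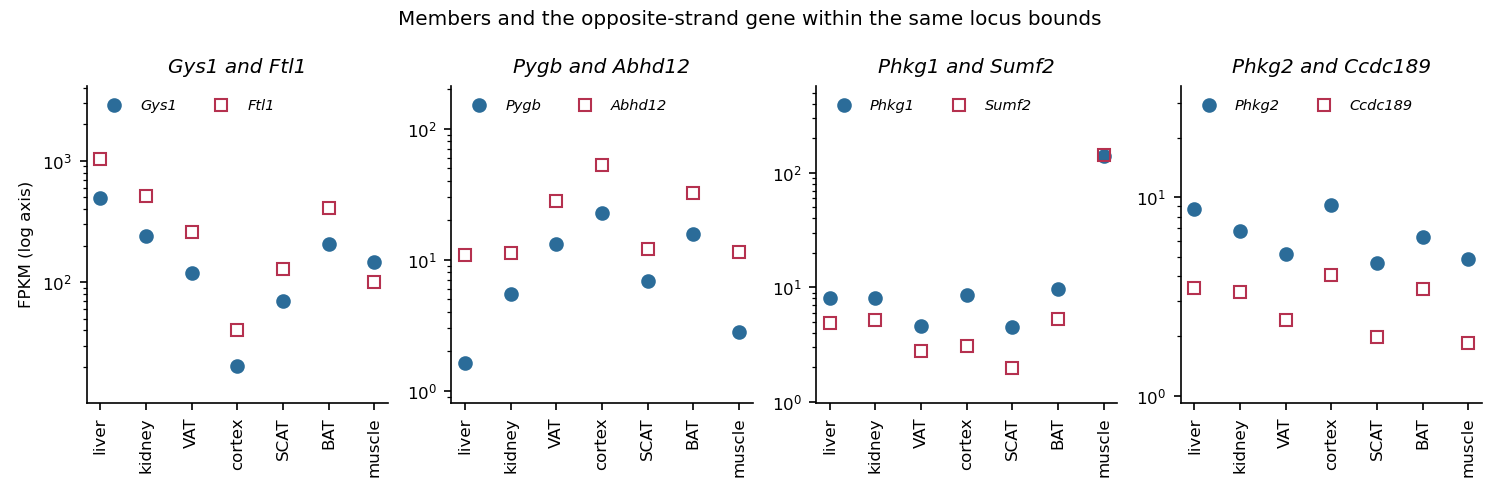
FPKM (log axis) of 4 members (filled circles) and of the gene on the other strand within the same locus bounds (open squares) in the 7 tissues, 1 library each. Gys1 follows Ftl1 at 46.0% to 54.9% of its level in 6 tissues and lies above it in muscle, and Phkg1 and Sumf2 are both highest in muscle.

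Within glycogen synthase, Gys2 made up 16.2% of the summed FPKM in liver and 15.4% in BAT, and 0.0789% to 1.25% in the other 5 tissues. These percentages and their order between tissues depend on the Gys1 values above.

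Pygl (chr12:70190811-70231488, minus strand) encodes liver phosphorylase. It was highest in BAT with 98.4 FPKM, followed by liver with 64.7, VAT with 17.3, SCAT with 6.43, kidney with 4.23, muscle with 1.75 and cortex with 0.838. BAT was 1.52-fold above liver and 5.68-fold above VAT. VAT held 26.7% of the liver level, and hepatocyte markers stood there at 0.701% to 2.29% of theirs. Their part in the VAT value was not tested.

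Pygm (chr19:6384399-6398459, plus strand) encodes muscle phosphorylase, the enzyme missing in McArdle disease. It reached 2387 FPKM in muscle, rank 18 among the protein-coding genes of that library. The other tissues were at 39.5 FPKM in BAT, 3.29 in cortex, 3.23 in VAT, 1.37 in kidney, 1.34 in SCAT and 0.406 in liver. Muscle stood 60.4-fold above BAT and 5875-fold above liver. Rasgrp2, which starts 880 bp downstream on the same strand, was at most 14.0 FPKM.

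Pygb (chr2:150786735-150831758, plus strand) encodes brain phosphorylase. Cortex had the highest level with 22.7 FPKM, before BAT with 15.7, VAT with 13.2, SCAT with 6.85, kidney with 5.48, muscle with 2.80 and liver with 1.62. Cortex was 1.45-fold above BAT, so the brain isoform was not enriched in cortex by the rule. Its range over the tissues was 14.0-fold, against 117-fold for Pygl.

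Within phosphorylase, a different isoform led in liver, muscle and cortex. Pygl was 97.0% of summed phosphorylase FPKM in liver, Pygm 99.8% in muscle and Pygb, with the limit from Abhd12 given above, 84.6% in cortex. The BAT library held 64.1% Pygl, 25.7% Pygm and 10.2% Pygb. Pygm there was at 1.65% of its muscle level, and muscle fibre markers were at 1.02% to 3.13% of theirs, and the part of muscle RNA in this share was not tested. Kidney held 38.2% Pygl, 12.4% Pygm and 49.4% Pygb, VAT held 51.2% Pygl and 39.2% Pygb, and SCAT held 44.0% Pygl and 46.9% Pygb. In cortex, Pygm was the second isoform with 12.3%. The summed FPKM itself differed widely, from 11.1 in kidney and 14.6 in SCAT to 66.7 in liver, 154 in BAT and 2392 in muscle.

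**Figure D3:**
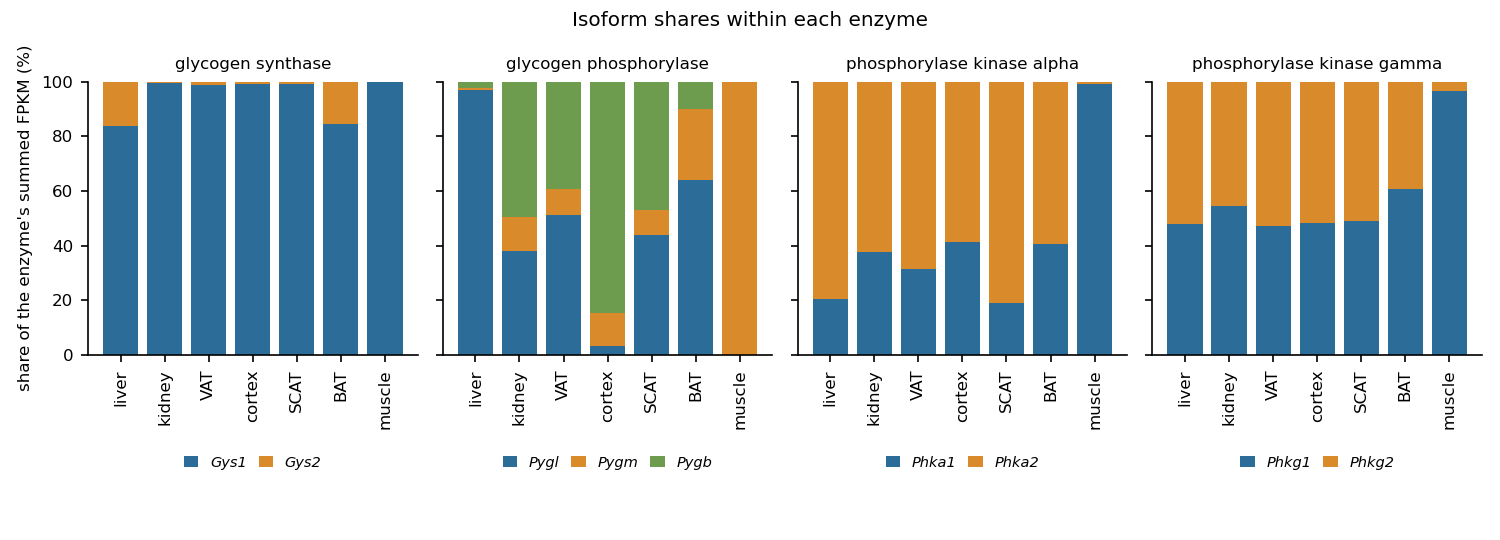
Share of each isoform (%) in the summed FPKM of its enzyme, 1 bar per tissue library, each bar adding to 100. Pygl fills 97.0% of the liver bar, Pygm 99.8% of the muscle bar and Pygb 84.6% of the cortex bar, while Phka1 and Phkg1 fill 99.2% and 96.7% of the muscle bars.

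Phka1 (chrX:102513975-102644246, minus strand) encodes the muscle alpha subunit of phosphorylase kinase. It was 326 FPKM in muscle, and 8.38 in BAT, 3.75 in cortex, 2.56 in kidney, 2.29 in VAT, 2.09 in liver and 1.68 in SCAT. Muscle exceeded BAT 38.9-fold. Phka2 (chrX:160502166-160598878, plus strand), the liver alpha subunit whose loss causes a liver glycogen storage disease, showed little of this spread. It was 12.2 FPKM in BAT, 8.14 in liver, 7.20 in SCAT, 5.34 in cortex, 5.03 in VAT, 4.23 in kidney and 2.71 in muscle, a range of 4.51-fold. BAT led liver by 1.5-fold on the deposited scale, but with every library scaled to an equal sum over protein-coding genes SCAT came first. Phka1 was 99.2% of alpha subunit FPKM in muscle and 18.9% to 41.2% elsewhere, and with all loci of a name added up it was 28.5% to 53.1% elsewhere. The alpha subunit genes thus stood in opposite order in muscle, where Phka1 was highest and Phka2 lowest.

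Phkg1 (chr5:129863421-129898549, minus strand) encodes the muscle gamma subunit, the catalytic one. Its level was 141 FPKM in muscle, 9.66 in BAT, 8.53 in cortex, 8.03 in kidney and in liver, 4.63 in VAT and 4.50 in SCAT. Muscle stood 14.6-fold above BAT, beside the 144 FPKM of Sumf2 in that library, and the other 6 tissues lay within a narrow band. With libraries scaled to an equal sum, muscle stood 6.18-fold above cortex, the next tissue on that scale. Phkg2 (chr7:127573340-127583307, plus strand), the liver and testis gamma subunit, was the most even member on the deposited scale. It was 9.11 FPKM in cortex, 8.75 in liver, 6.76 in kidney, 6.31 in BAT, 5.20 in VAT, 4.87 in muscle and 4.69 in SCAT, a range of 1.94-fold. With libraries scaled to an equal sum, the log2 ratio of cortex over the next tissue rose from 0.06 to 0.70. Phkg1 was 96.7% of gamma subunit FPKM in muscle, 60.5% in BAT and 47.1% to 54.3% in the other 5 tissues. The beta subunit gene Phkb was 224 FPKM in muscle against 5.01 to 22.3 elsewhere. Summed alpha over Phkb FPKM lay between 0.548 in cortex and 1.77 in SCAT and was 1.46 in muscle, so the alpha and beta genes were high in muscle together. Summed phosphorylase FPKM was 7.28 times that of alpha in muscle, 7.45 times in BAT, 6.53 times in liver and 1.63 times in kidney.

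BAT came second for Gyg, Pygm, Phka1 and Phkg1, the 4 members highest in muscle. For Phkg1 this held on the deposited scale only, and cortex came second with median ratio or equal sum scaling. Muscle fibre genes were found in BAT too. Of 7 listed fibre markers, 5 had a value in both libraries, and they summed to 636 FPKM in BAT, 29851 in muscle, 74.6 in SCAT and 59.4 in VAT. Tnnt3 alone made 70.2 of the SCAT sum, and the other 4 were lower in SCAT than in VAT. Of the other two, Myh4 was at 87.5 FPKM in BAT with no muscle value, and Acta1 was left without a locus. The 5 stood in BAT at 1.02% (Myh1), 1.46% (Mylpf), 1.48% (Pvalb), 1.93% (Ckm) and 3.13% (Tnnt3) of their muscle level. Pygm was at 1.65% and Phka1 at 2.57%, inside this range. Phkg1 was at 6.85% and Gyg at 27.5%, above it. The part of muscle RNA in these BAT values was not tested. In bulk tissue, fewer cells of a type and less RNA per cell cannot be told apart.

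**Figure D4:**
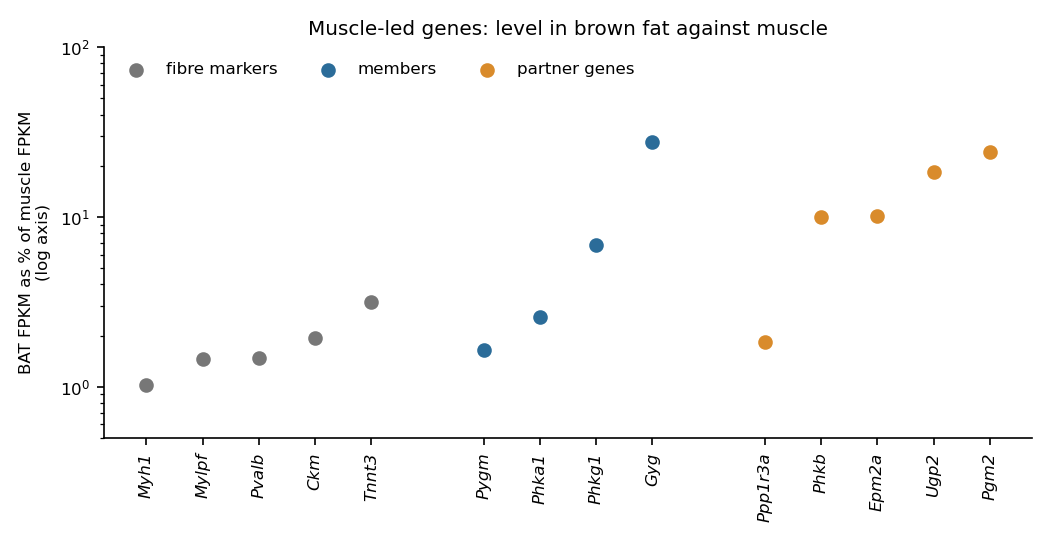
FPKM in BAT as percent of FPKM in muscle (log axis) for 5 muscle fibre markers, the 4 members highest in muscle and the 5 partner genes enriched in muscle, 1 point per gene from 1 library per tissue. Pygm, Phka1 and Ppp1r3a lie within the 1.02% to 3.13% of the fibre markers, and the other genes lie above.

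Genes that work with the members were read from a list of 23 partners, chosen with earlier results of these data known. Of these, 22 reached 1 FPKM in a tissue and Ppp1r3d did not. By the same rule, 5 of 22 (22.7%) were enriched in any tissue, close to the 21.3% of all genes. All 5 were called in muscle, against 3.38% of all genes, and muscle was the highest tissue for 11 of 22, against 24.0% of all genes. The count of 11 was made on the deposited scale only, where muscle led by 1.20-fold for Gsk3a and 1.57-fold for Gsk3b. Ppp1r3a, which tethers protein phosphatase 1 to muscle glycogen, was 69.2 FPKM in muscle, 1.28 in BAT and at most 0.178 elsewhere. Epm2a, the glycogen phosphatase laforin, was 66.1 FPKM in muscle and 12.5 in cortex. Ugp2, which makes UDP-glucose, was 819 FPKM in muscle and 202 in liver, and Pgm2, a phosphoglucomutase, was 295 in muscle and 71.1 in BAT. The calls of Ugp2, Pgm2 and Epm2a lay near the limit, at log2 ratios of 2.02, 2.05 and 2.39, and were lost with median ratio scaling, which left 2 calls in muscle (Phkb and Ppp1r3a), against 2.73% of genes.

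Ppp1r3b, the targeting subunit of protein phosphatase 1 in liver, was high in the same tissues as Gys2 and Pygl, with 52.0 FPKM in BAT, 31.6 in liver and at most 2.45 in the other 5. Ppp1r3c, a further targeting subunit, was 77.8 FPKM in muscle, 31.5 in BAT, 21.7 in liver and 8.06 in cortex. Gbe1, the branching enzyme, was highest in BAT with 98.7 FPKM, before muscle with 65.9 and liver with 39.8. Stbd1, a glycogen-binding protein, was 33.2 FPKM in liver and 20.7 in muscle but 1.80 in BAT. Calm2 and Calm3, whose product calmodulin is the delta subunit of phosphorylase kinase among many other roles, were highest in cortex at 444 and 201 FPKM. Gsk3a and Gsk3b, kinases that inactivate synthase, ranged from 8.26 to 31.5 and from 5.67 to 22.6 FPKM. Nhlrc1, the ubiquitin ligase malin, stayed below 4 FPKM.

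**Figure D5:**
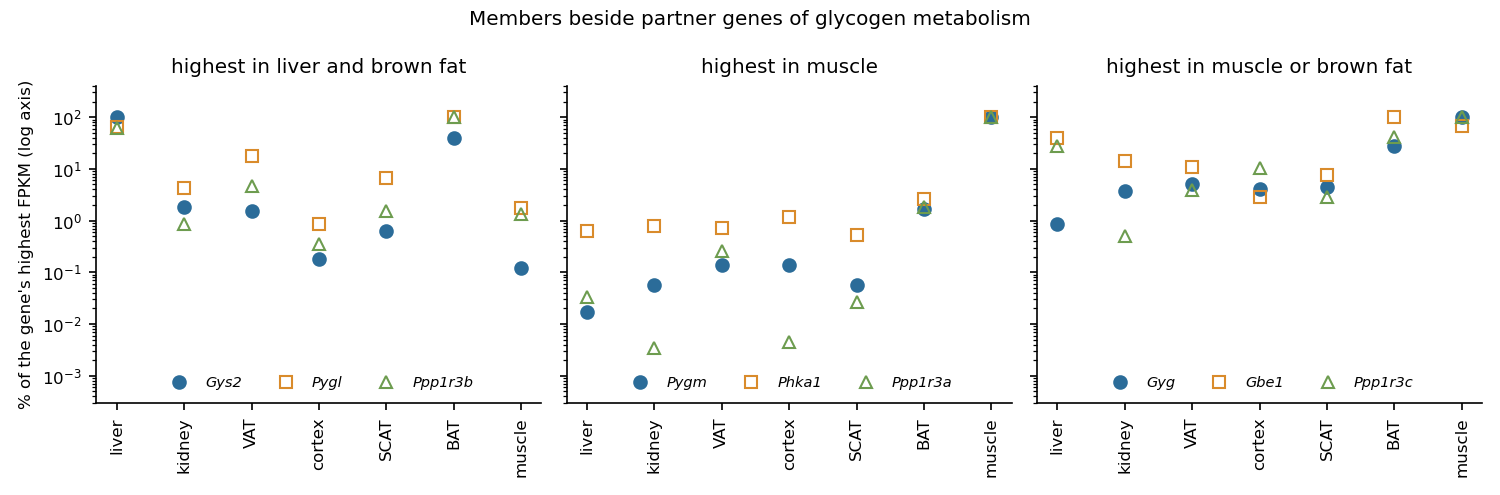
FPKM as percent of each gene's highest tissue (log axis) for members and partner genes in 7 tissues, 1 library each. Gys2, Pygl and Ppp1r3b are high in liver and BAT, Pygm, Phka1 and Ppp1r3a are high in muscle, and Gyg, Gbe1 and Ppp1r3c are highest in muscle or BAT, with Gbe1 at 39.8 and Ppp1r3c at 21.7 FPKM in liver.

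Tissues were then set side by side in 6 pairs, which share libraries and are therefore not independent. A gene was called in a pair with a log2 ratio of at least 2 and at least 1 FPKM in the higher tissue. Between liver and muscle, 2 of 10 members were higher in liver, against 13.3% of genes, and 4 of 10 higher in muscle, against 15.1%. The log2 ratios of liver over muscle were 8.80 for Gys2 and 5.13 for Pygl, and -12.20 for Pygm, -7.22 for Phka1, -6.78 for Gyg and -4.12 for Phkg1. Between liver and kidney, Gys2 and Pygl were higher in liver at 5.72 and 3.90, 2 of 10 against 8.19% of genes. Gyg was lower in liver at -2.03, 1 of 10 against 10.2%, a call lost with a pseudocount of 1. Of the 9 members tested between cortex and muscle, Pygb was higher in cortex at 2.98, 1 of 9 against 16.5% of genes. Another 5 of 9 were lower in cortex (Pygm, Phka1, Gyg, Phkg1 and Gys1), against 18.2% of genes. Leaving out Gys1, Pygb, Phkg1 and Phkg2, the counts between cortex and muscle were 0 higher and 3 lower of 5. Median ratio scaling kept 1 higher and 5 lower between cortex and muscle, against 19.5% and 13% of genes, and added Gys1 to the members higher in liver than muscle, 3 of 10 against 15% of genes.

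The 3 fat depots were compared in pairs. Compared with VAT, 4 of 10 members were higher in BAT, against 9.84% of genes, and 0 were lower, against 7.2%. Their log2 ratios were 4.57 for Gys2, 3.57 for Pygm, 2.50 for Pygl and 2.44 for Gyg. Compared with SCAT, 5 of 10 were higher in BAT, against 15.6% of genes, and 0 were lower, against 6.04%. Gys2 led with 5.77, followed by Pygm at 4.78, Pygl at 3.92, Gyg at 2.61 and Phka1 at 2.25. Muscle fibre markers were also higher in BAT, at a median of 1.48% of their muscle level against 0.154% in VAT and 0.0198% in SCAT, and their part in the calls of Pygm, Phka1 and Gyg was not tested. Median ratio scaling lowers BAT by 0.20 and raises SCAT by 0.43 and VAT by 0.29 on the log2 scale. It left Gys2, Pygl and Pygm higher in BAT in both comparisons and lost Gyg in both and Phka1 over SCAT. On that scale 6.42% of genes were higher in BAT than in VAT and 9.73% lower, and 8.86% higher than in SCAT and 9.56% lower. Equal sum scaling has larger shifts (-0.50 in BAT, 0.59 in VAT and 0.89 in SCAT) and was not applied to these pairs. On the deposited scale, the median log2 ratio of BAT over SCAT was 1.91 over the members and 0.65 over all genes tested. Between VAT and SCAT no member was called in either direction, against 6.34% of genes higher in VAT and 3.83% lower, and ratios lay between -0.51 for Phka2 and 1.42 for Pygl, with Pygm at 1.21 and Gys2 at 1.20. Of 21 partner genes tested, 6 were higher in BAT than in VAT (9.84% of genes) and 8 higher in BAT than in SCAT (15.6%), and 0 were lower in either. Between VAT and SCAT, 0 of 19 were called in either direction. Between liver and muscle, 1 partner of 21 was higher in liver (13.3% of genes) and 8 were lower (15.1%), between cortex and muscle 0 of 20 were higher in cortex (16.5%) and 8 lower (18.2%), and between liver and kidney 3 of 20 were higher in liver (8.19%) and 1 lower (10.2%).

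Genes with the most similar tissue pattern were sought among 14898 protein-coding genes, by the Euclidean distance of log2(FPKM + 0.1), centred over the 7 tissues, and the nearest are named with this distance. Pygm lay nearest to Cmya5 (0.937), Srl (1.44) and Sgca (1.52), genes of the muscle cytoskeleton, sarcoplasmic reticulum and membrane. Phka1 lay nearest to Gm5105 (0.589), Asb16 (0.752) and Asb14 (0.913). Pygl lay nearest to Cdo1 (1.48), a cysteine dioxygenase with 615 FPKM in liver and 452 in BAT, then to Angptl8 (1.57) and Tspan12 (2.25). Gys2 had no near match, with Lrrc15 at 2.62, Sec14l4 at 2.84 and 2010003K11Rik at 2.87. Gyg was nearest to Kbtbd13 (1.38), Ptx3 (1.57) and Fer1l6 (1.68). Phkg1 was nearest to Aimp2 and Ankrd61 (both 0.525, as they share a locus) and Lin37 (0.79). Even members had close matches, such as Phkg2 to Sync (0.273), Hmbox1 (0.336) and Trub1 (0.386), and Phka2 to Pgrmc2 (0.445), Bbc3 (0.506) and Sept9 (0.617). Pygb was nearest to B4galt4 (0.852), Rcor2 (0.922) and Efna2 (0.952). Gys1, with the limit given above, was nearest to Scnn1a (0.479), Ltbr (0.678) and Palld (0.715).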

How the data were processed

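The authors prepared directional libraries from rRNA-depleted RNA, trimmed reads with flexbar, removed rRNA reads with Bowtie2 2.2.9, aligned to GRCm38 with STAR 2.6.0c (Ensembl release 90), and assembled transcripts and compared tissues with Cufflinks 2.2.1 and its cuffdiff. Tools and versions are from the submitters' processing notes and the study's methods. The deposited values are FPKM of 94339 loci in 21 comparisons of the 7 libraries, with each tissue's value the same in every comparison. The table also holds fold changes, test statistics, p-values and q-values of the authors, which were not used. No column of per-sample values was left unmapped.

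Names were split on commas, 151 loci with the status FAIL were dropped, 225 zeros under LOWDATA were set to missing, and the locus with the highest FPKM was taken for each name. Protein-coding genes and positions are from GENCODE M21. Strand is not a column of the table and was inferred from the listing, which runs through each chromosome in an ascending series per strand. Fold rules used log2(FPKM + 0.1) and at least 1 FPKM. They were run on simulated data with a rise in muscle well above the rule. This checked the code only, as the simulation held no shared loci and no RNA of other tissues. Median ratio scaling moved a library's log2 values by 0.43 in SCAT, 0.29 in VAT, 0.18 in cortex, -0.20 in BAT and -0.27 in muscle, and by less than 0.1 in liver and kidney. Alternatives covered the locus used, scaling, pseudocount, minimum, fold and libraries left out. The exclusion of 4 members with a neighbour on the other strand was chosen after seeing the data. The members and lists were chosen with earlier results of these data known. Named are the members, partner genes, marker genes and the 3 nearest genes of each member, and neighbouring genes were named after their values were seen. Promoters and their motif matches are from RefSeq, and coding sequences are the longest open reading frames of the reference transcripts. Partners and markers not named are covered by counts, and 2 genes of the partner list were left out of all results and are not reported here. Scripts ran in Python 3.11.15 with NumPy 2.4.6, pandas 2.3.3 and SciPy 1.17.1, and figures were drawn with matplotlib 3.10.9.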

Additional observations from a re-analysis of the deposited data

How the results depend on the processing

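No paired analysis was possible because no tissue has a second library, which also left no replicate to leave out. Using the annotated strand, or leaving out loci of several names, changed none of the 154 values recomputed that way, which are not counted below. Of 30 recomputed log2 ratios of the highest over the next tissue, 27 moved by less than 1.5-fold with the same leading tissue. Gys1, Pygb, Phka2, Phkg1 and Phkg2 have 1 locus each. Their ratios with all loci added up could not move and are among the 27. With libraries scaled to an equal sum, the ratio of Phka2 reversed to -0.62 (BAT below SCAT), and those of Phkg1 and Phkg2 became 2.62 and 0.70. Of 63 shares with all loci of a name added up, 51 moved by less than 5 percentage points. Shares within an enzyme move together. Phkg1 and Phkg2 have 1 locus each, so their shares, among the 51, could not move. In the other 12, Phka1 had 28.5% of alpha subunit FPKM in liver, 28.8% in SCAT, 41.9% in VAT, 48.0% in kidney, 49.0% in BAT and 53.1% in cortex, and Phka2 had 71.5%, 71.2%, 58.1%, 52.0%, 51.0% and 46.9% there.

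Among enrichment counts, 63 of 75 stayed within 1.5 times. A 2-fold rule gave 6 members in any tissue, against 38.4% of genes, 2 of them in liver (6.26%), and 10 partner genes, 8 of them in muscle (7.65%). The 2 in liver were Gys2 and Gys1, and Gys1 carries the limit from Ftl1 given above. An 8-fold rule gave 2 partner genes, against 13.8%, both in muscle (1.98%). Median ratio scaling gave 3 partner genes, against 21.2%, and 2 were in muscle (2.73%), as with equal sum scaling (1.99%). Without the BAT library, 5 members were enriched, against 22.2%, with Gys2 as the 1 in liver (3.69%) and Gyg joining in muscle (4.16%), and 1 partner gene (Ppp1r3b) was enriched in liver. Among pair counts, 55 of 60 stayed within 1.5 times. Members higher in BAT than SCAT numbered 3 with median ratio scaling, and members lower in liver than kidney 0 with a pseudocount of 1 or with all loci added up. Without Gys1, Pygb, Phkg1 and Phkg2, members higher in cortex than muscle numbered 0 and lower 3. The fall in those counts comes from fewer members tested, and otherwise the cause was not tested. Depth is unknown, so values near 0.1 FPKM have no stated precision.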

Other observations

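The ratio of liver phosphorylase to liver synthase within a library differed between liver and brown fat although both held Gys2 and Pygl. Pygl over Gys2 FPKM was 0.675 in liver, 2.46 in kidney, 2.6 in BAT, 4.85 in cortex, 10.8 in SCAT, 11.6 in VAT and 15.2 in muscle, where Gys2 was below 1 FPKM in cortex, SCAT and muscle. Summed alpha over summed gamma subunit FPKM of phosphorylase kinase was 2.25 in muscle, 1.29 in BAT and 0.46 to 0.966 in the other 5 tissues. The catalytic subunit genes of protein phosphatase 1, Ppp1ca, Ppp1cb and Ppp1cc, ranged from 47.7 to 98.2, 9.47 to 71.1 and 19.7 to 71.8 FPKM over the 7 tissues.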
